A study of Mus musculus with 8 samples.

Results

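The genes described here encode 8 receptors of the tumour necrosis factor (TNF) receptor family that T cells carry: Tnfrsf4 (OX40), Tnfrsf18 (GITR), Tnfrsf9 (4-1BB), Tnfrsf1b (TNFR2), Tnfrsf8 (CD30), Tnfrsf25 (DR3), Cd27 and Fas. They were chosen by name from the family, out of 21779 protein-coding genes used; no peak value entered the rule, but earlier results of these data were known when the set was chosen. All 8 were found in the RefSeq gene table, and 6 of them lie on chromosome 4. For each gene the peaks counted were those that met the gene body or the 10 kb on either side of it, called its territory.

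Smad4, the common partner of the receptor-activated SMADs of the TGF-β and BMP pathways, had been mapped on the genome of mouse CD4+ T cells by ChIP-seq, the sequencing of DNA that an antibody to Smad4 brought down. Cells came from spleen and lymph nodes of C57BL/6 mice and were activated and cultured with interleukin 6 (IL6) and a TGFbR inhibitor, which blocks TGF-β receptor signalling, until the 12 h time point. The 2 wild-type (WT) libraries came from females. The 2 knockout (KO) libraries had the genotype CD4cre;Smad4fl/fl, in which Cre driven by Cd4 deletes floxed Smad4 in T cells; KO replicate 1 was pooled from males and females, and KO replicate 2 was male. The activation and both agents were common to all 4 libraries, so no comparison with untreated cells exists here. Genotype and sex cannot be told apart in these libraries. The labels do not say whether the replicates were separate animals, so any p-value measures only the spread between these libraries. Of the series' 8 samples, the 4 input samples (chromatin without immunoprecipitation) were not analysed here.

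TNF receptors of this family are switched on by trimeric ligands carried on antigen-presenting or other immune cells. OX40, GITR, 4-1BB, CD27, CD30 and TNFR2 recruit TRAF adaptor proteins, activate NF-κB, and prolong the division and survival of T cells that have met antigen. DR3 and Fas carry a death domain; DR3 acts on T cells mainly as a costimulator, and Fas is the classical trigger of death in activated T cells. OX40, GITR, 4-1BB and TNFR2 are also prominent on regulatory T cells.

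The peak lists gave positions only, with no height, score or p-value, and the read depth behind them is unknown. WT replicate 1 listed 27120 peaks and WT replicate 2 listed 19792, while the KO lists held 564 (replicate 1) and 424 (replicate 2). The part that depth has in list length was not tested. A peak in such a bulk library does not tell binding in more cells from stronger binding per cell. Deletion of Smad4 itself cannot be checked from peak positions. As a check of the labelled cell type, regions called in both WT lists and in no KO list lay at all 10 T cell genes of a marker list (Cd3e, Cd4 and Lck among them). Such regions were found at none of 2 CD8 genes, none of 6 myeloid genes and 2 of 6 B cell genes (Cd79a and Pax5). The share over all protein-coding genes was 44.3%, and lists this short cannot settle the cell type. Cd79a held 5 such regions, more than any T cell gene of the list but Lck (7). Cd8b1 had 3 peaks in WT replicate 1 and 1 in KO replicate 1. Peaks are not expression, and what the B cell regions stand for was not tested.

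All 8 receptor genes held Smad4 peaks in both WT libraries, and 6 of them held none in either KO library. Counting each peak once, the territories held 44 and 41 peaks of WT replicates 1 and 2, and 2 and 0 peaks of KO replicates 1 and 2. As a share of each whole list, these were 0.162% and 0.207% of the WT peaks and 0.355% of the peaks of KO replicate 1. The few KO peaks here stand beside KO lists that are short over the whole genome.

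WT peaks sharing 1 bp or more were joined into merged regions. A merged region with a peak of both WT lists is called reproducible, and a reproducible region that met no KO peak is called WT-only. The territories held 50 merged WT regions, of which 32 were reproducible and 30 were WT-only. The other 2 reproducible regions also met a peak of KO replicate 1, and 18 regions rested on 1 WT list. Each of the 8 genes had a WT-only region (8 of 8), beside 44.3% of all protein-coding genes. The median was 3.5 WT-only regions over these genes, 3 over the 10 T cell genes of the marker list and 0 over all coding genes. Each of the 8 genes had more peaks in both WT lists than in either KO list, beside 45.7% of all coding genes. For each gene a 2-sided exact permutation test of its peak number gave p = 0.333, the smallest value that 2 libraries against 2 allow, so no single gene could pass a threshold. On chromosome 4, which carries 6 of the genes, 47.0% of the 1301 coding genes had a WT-only region.

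**Figure D1:**
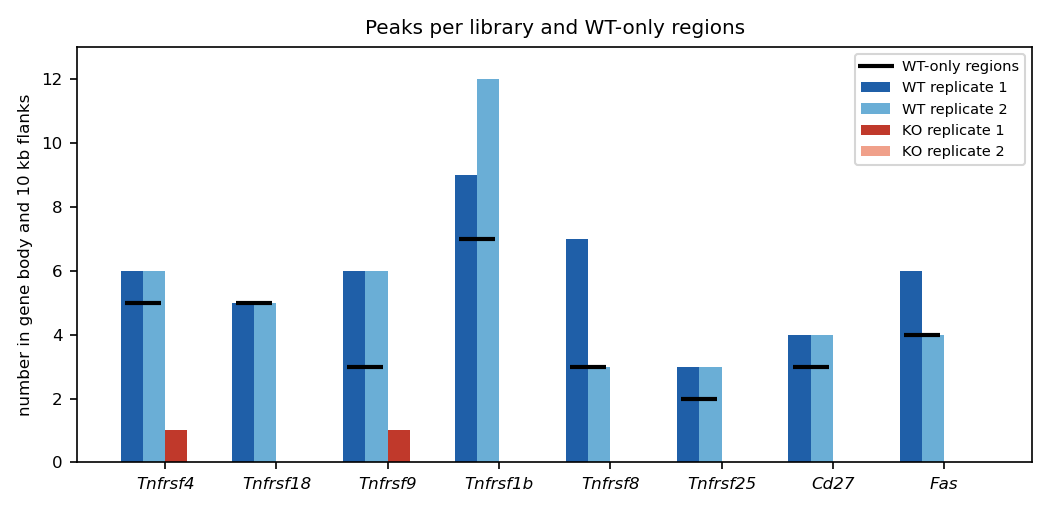
Number of Smad4 peaks in each library (bars) and of WT-only regions (black marks) in the body and 10 kb flanks of the 8 receptor genes. Tnfrsf1b has the highest bars, with 9 and 12 WT peaks, and KO peaks appear as 1 each at Tnfrsf4 and Tnfrsf9.

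Tnfrsf1b, which encodes TNFR2 (chromosome 4, 145212368 to 145246870, minus strand), had the most. It held 9 and 12 peaks in WT replicates 1 and 2 and 0 in each KO list, a WT mean of 10.5 ± 2.12 (SD, n = 2). These formed 7 WT-only regions, a number that 204 coding genes (0.937%) reached or passed. The widest, of 3109 bp (145219804 to 145222912), lay inside the gene, 25.5 kb downstream of the start. There WT replicate 1 had a single peak of 2936 bp, a width that 0.321% of its list (this peak included) reached or passed, while WT replicate 2 had 3 peaks of 618, 242 and 1120 bp. Further WT-only regions lay 10.6 and 5.95 kb into the gene, over the start, 3.27 and 7.77 kb upstream of the start, and 2.23 kb past the far end of the gene. The upstream pair met the long non-coding RNA gene Gm36233 and lay in the 20.3 kb between Tnfrsf1b and Tnfrsf8. Of the 5 Tnfrsf1b regions called in 1 list only, 3 came from WT replicate 2 and 2 from WT replicate 1. Those of WT replicate 2 at the far end lay 86 and 185 bp from the nearest peak of WT replicate 1.

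Tnfrsf4, which encodes OX40 (chromosome 4, 156013595 to 156016613, plus strand), and Tnfrsf18, which encodes GITR (156026322 to 156028894, plus strand), are neighbours 9.71 kb apart. Tnfrsf4 held 6 peaks in each WT list and 1 and 0 in KO replicates 1 and 2. Tnfrsf18 held 5 peaks in each WT list and 0 in each KO list. By the 1 bp rule the 2 WT lists matched peak for peak in this pair, since every merged region was reproducible. Each gene had 5 WT-only regions, a number that 499 coding genes (2.29%) reached or passed, and 2 of the regions belonged to both territories. When 50% of both peaks had to overlap, 4 WT-only regions remained at Tnfrsf4 and 3 at Tnfrsf18. The shared region between the genes (156021256 to 156022823) was the widest of the pair at 1568 bp, with peaks of 1568 and 1372 bp. It lay 4.28 kb upstream of the Tnfrsf18 start, in the long non-coding RNA gene Gm16008. The other shared region (156025945 to 156026453) covered the Tnfrsf18 start, with peaks of 438 and 242 bp whose centres stood 169 bp apart. Past the end of Tnfrsf18, 3 more WT-only regions lay 2.03, 3.31 and 4.87 kb from the gene.

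On the far side of Tnfrsf4, a WT-only region of 956 bp (156013469 to 156014424) covered the gene's start, with peaks of 956 and 598 bp. It also met the end of Sdf4, which overlaps the first bases of Tnfrsf4. Upstream of that start, WT-only regions lay at 9.36 and 3.11 kb inside Sdf4. Between them, 5.20 kb upstream, stood the reproducible region of 1368 bp (156007809 to 156009176) that also met a KO peak. The KO replicate 1 peak there (156008374 to 156008627) had its centre 8 bp from that of the WT replicate 1 peak and 22 bp from that of WT replicate 2. By position alone these upstream regions could belong to Sdf4 as well as to Tnfrsf4.

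Tnfrsf9, which encodes 4-1BB (chromosome 4, 150920155 to 150946104, plus strand), held 6 peaks in each WT list and 1 and 0 in KO replicates 1 and 2. Equal numbers here did not mean equal positions. Of its 7 merged regions, 4 were reproducible and 3 were WT-only, and the WT peaks shared 51.1% of the base pairs that either list covered. The widest region, of 2111 bp (150924098 to 150926208), lay inside the gene, 2.85 kb before the second of its annotated starts. WT replicate 1 had a single peak of 2006 bp there, and WT replicate 2 had peaks of 462 and 818 bp. Upstream of the gene 3 reproducible regions followed each other at 5.85, 4.50 and 2.64 kb from the first start, with widths of 958, 927 and 864 bp. The nearest of them (150917083 to 150917946) met the KO replicate 1 peak (150917426 to 150917679), whose centre lay 38 and 35 bp from those of the peaks of WT replicates 1 and 2. No list had a peak on the window around the first start, and WT replicate 1 alone had one, of 482 bp, on the second start.

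Both KO peaks at these genes were 254 bp wide, the smallest width in the list of KO replicate 1, where 48.0% of peaks stood at that width. The nearest peak of KO replicate 2 was 5.44 Mb from the one at Tnfrsf4 and 0.351 Mb from the one at Tnfrsf9. A KO peak was thus seen at 2 of 8 genes, each time in KO replicate 1 alone, beside 2.42% of all coding genes with a peak in either KO list. Of the reproducible WT regions, 93.8% (30 of 32; exact 95% Clopper-Pearson interval 79.2% to 99.2%) were WT-only here, and 96.2% (15882 of 16501; 95.95% to 96.5%) over the genome. Intervals cover counting error only.

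**Figure D2:**
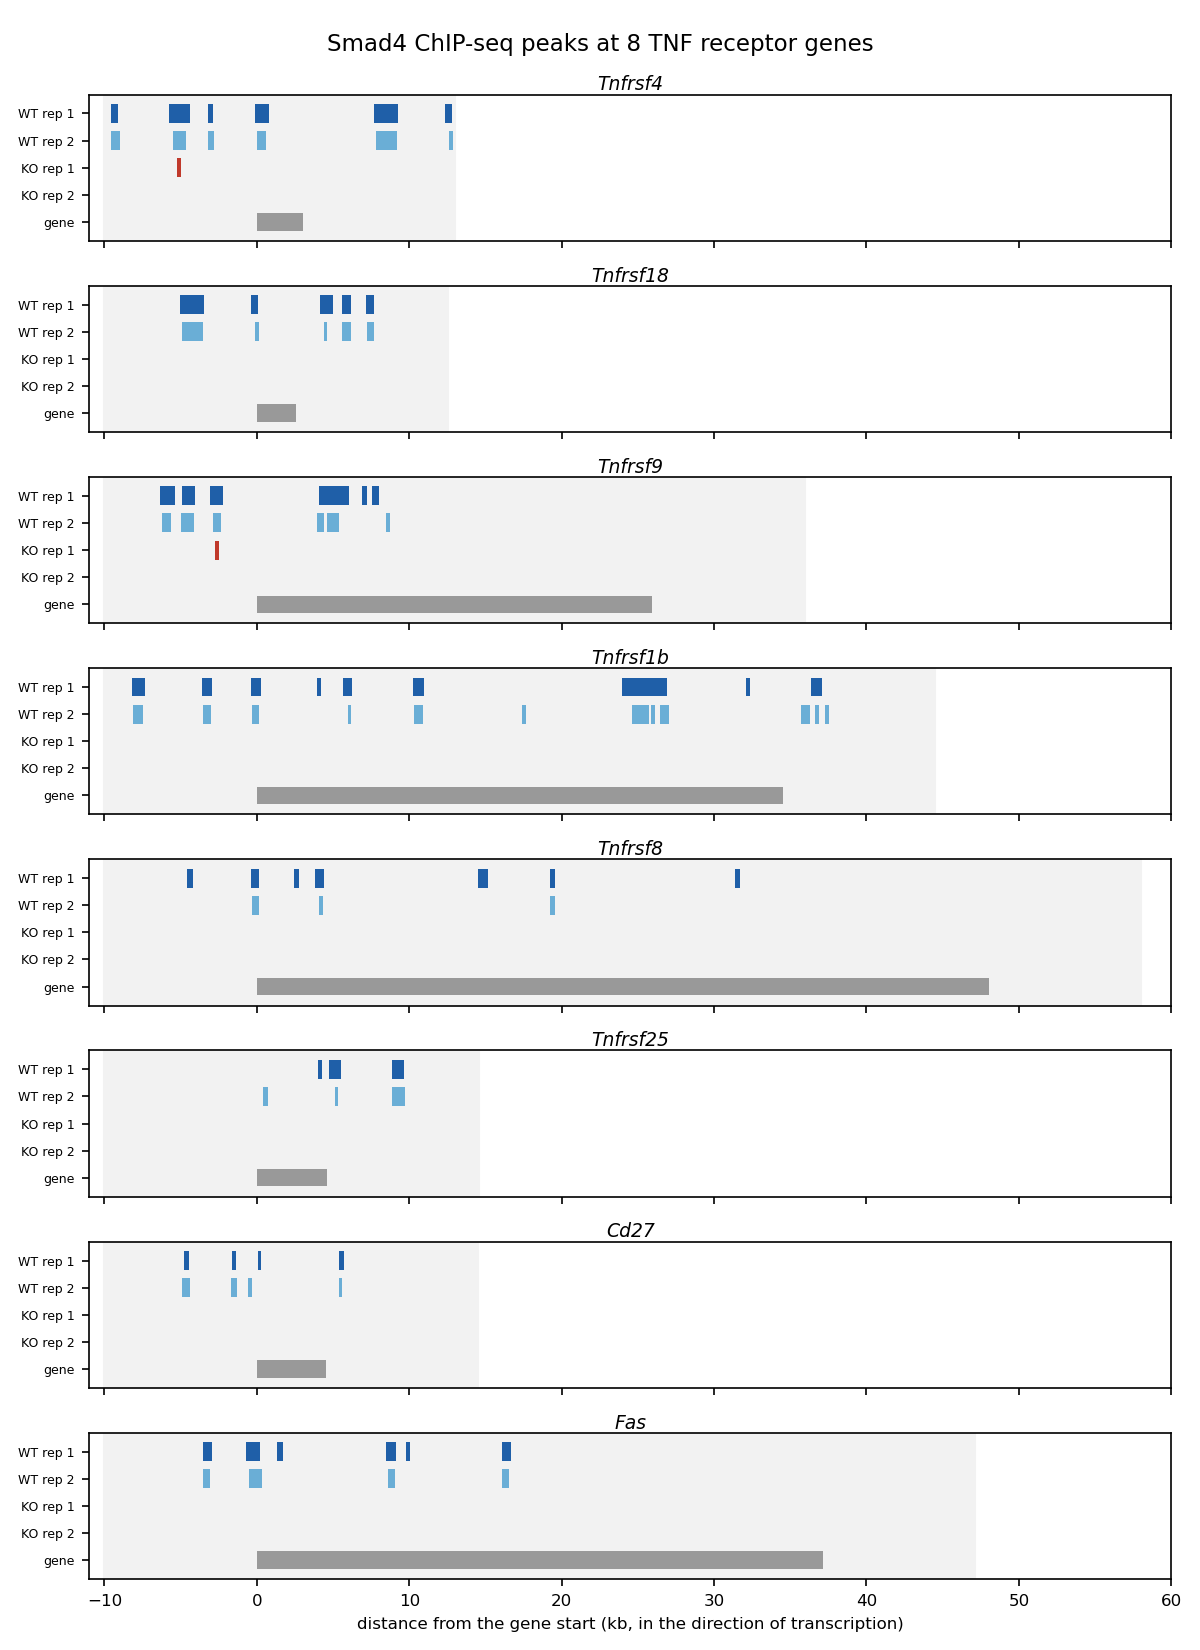
Smad4 peaks of the 4 libraries (coloured boxes) along each receptor gene (grey box) and its flanks (shaded), in kb from the gene's outermost start coordinate in the direction of transcription. WT peaks line up between the lists at most positions, most fully at Tnfrsf4 and Tnfrsf18, and the 2 KO peaks lie under WT peaks upstream of Tnfrsf4 and Tnfrsf9.

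Cd27, whose receptor supports the survival of naive and early activated T cells (chromosome 6, 125232620 to 125237136, minus strand), held 4 peaks in each WT list and 0 in each KO list. These gave 3 WT-only regions of 344, 388 and 536 bp. They lay 5.43 kb downstream of the start, inside the neighbouring gene Tapbpl, and 1.62 and 4.74 kb upstream of the start. The regions of 344 and 388 bp met the gene E130112N10Rik, as did the 240 and 242 bp single-list peaks near the start. The Cd27 peaks were narrow: the widest was 362 bp in WT replicate 1 and 536 bp in WT replicate 2. At the start itself the lists differed. WT replicate 1 had a 240 bp peak over it (125236841 to 125237080), and WT replicate 2 had a 242 bp peak 384 bp away (125237464 to 125237705), both at the smallest width of their list.

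Tnfrsf8, which encodes CD30 (chromosome 4, 145267132 to 145315164, minus strand), showed the widest gap between the WT lists. It held 7 and 3 peaks in WT replicates 1 and 2 and 0 in each KO list, a WT mean of 5 ± 2.83 (SD, n = 2). All 3 peaks of WT replicate 2 met one of WT replicate 1, giving 3 WT-only regions. One of 560 bp covered the start (145314997 to 145315556), with peaks of 560 and 486 bp whose centres lay 9 bp apart. The others lay 4.11 and 19.4 kb into the gene. The 4 peaks called in WT replicate 1 alone had widths of 300, 682, 372 and 436 bp, so they were not confined to the smallest width of that list.

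Tnfrsf25 and Fas are the members with a death domain. Tnfrsf25 (DR3; chromosome 4, 152115528 to 152120119, plus strand) had the fewest peaks, 3 in each WT list and 0 in each KO list. Its 2 WT-only regions lay past the end of the gene, inside the neighbouring gene Espn. One, of 770 bp (152120265 to 152121034), was centred 0.531 kb beyond the gene, and the other, of 864 bp (152124382 to 152125245), 4.69 kb beyond it. Inside the gene each WT list had 1 peak that the other lacked. WT replicate 2 had 304 bp between the 2 annotated starts, and WT replicate 1 had 240 bp near the far end.

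Fas (chromosome 19, 34290647 to 34327775, plus strand) held 6 and 4 peaks in WT replicates 1 and 2 and 0 in each KO list, a WT mean of 5 ± 1.41 (SD, n = 2). All 4 peaks of WT replicate 2 met one of WT replicate 1, giving 4 WT-only regions. The widest, of 1078 bp (34289923 to 34291000), covered the start, with peaks of 914 and 838 bp. Their centres stood 202 bp apart, the largest offset among the 28 WT-only regions with 1 peak per list. The others lay 3.24 kb upstream of the start and 8.80 and 16.4 kb downstream of it, inside the gene.

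Over all 30 WT-only regions, 14 had their centre upstream of the gene, 9 inside it and 7 beyond its end, with a region in 2 territories placed by the nearer start. Their widths ran from 326 to 3109 bp with a median of 641 bp, next to 644 bp for all WT-only regions. Position did not assign every region to 1 gene: 15 of the 30 also lay in the territory of another coding gene, such as Sdf4, Ttll10, Park7, Espn or Tapbpl.

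An annotated start was covered by a WT-only region at Tnfrsf4, Tnfrsf18, Tnfrsf1b, Tnfrsf8 and Fas. Counted on promoter windows of 300 bases around each start in RefSeq (GRCm38.p6, the assembly of mm10), 5 of 8 genes had a WT-only region on a window, beside 28.1% of the 17492 coding genes with a window. At Tnfrsf9 and Cd27 only WT replicate 1 met a window, at Tnfrsf25 only WT replicate 2, and no KO peak met any of the 10 windows. The window of Tnfrsf4, 1 of the 5 genes with a WT-only region on a window, runs over the end of Sdf4 and is not shown. It held no match to the motifs searched. The sequences below are the 250 bases before the start at the other 4 genes. They are printed 5′ to 3′ on the strand of the gene, from chr4:156026072-156026321 (plus), chr4:145246871-145247120 (minus), chr4:145315165-145315414 (minus) and chr19:34290409-34290658 (plus). Capitals mark every match to the motifs searched.
Tnfrsf18: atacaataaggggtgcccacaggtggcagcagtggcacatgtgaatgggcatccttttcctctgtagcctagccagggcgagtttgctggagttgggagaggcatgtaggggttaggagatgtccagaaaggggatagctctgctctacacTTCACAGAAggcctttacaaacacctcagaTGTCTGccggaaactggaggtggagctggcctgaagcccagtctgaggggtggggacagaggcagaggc
Tnfrsf1b: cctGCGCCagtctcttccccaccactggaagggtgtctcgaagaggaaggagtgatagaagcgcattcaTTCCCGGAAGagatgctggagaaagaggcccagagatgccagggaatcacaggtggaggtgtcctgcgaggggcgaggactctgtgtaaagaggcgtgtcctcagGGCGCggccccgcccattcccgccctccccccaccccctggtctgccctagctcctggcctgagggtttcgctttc
Tnfrsf8: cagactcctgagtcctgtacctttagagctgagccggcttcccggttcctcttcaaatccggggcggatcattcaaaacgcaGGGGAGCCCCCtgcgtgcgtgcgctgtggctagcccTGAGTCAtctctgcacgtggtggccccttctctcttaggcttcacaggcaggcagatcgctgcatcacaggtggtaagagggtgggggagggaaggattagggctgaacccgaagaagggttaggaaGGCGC
Fas: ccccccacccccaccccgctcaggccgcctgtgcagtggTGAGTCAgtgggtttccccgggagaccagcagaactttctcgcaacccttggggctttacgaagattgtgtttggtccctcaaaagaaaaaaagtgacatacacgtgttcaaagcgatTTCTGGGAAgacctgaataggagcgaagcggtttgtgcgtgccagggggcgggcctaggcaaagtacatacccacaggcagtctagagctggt

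The motifs were searched on both strands: the SMAD element CAGACA, the SMAD palindrome GTCTAGAC, the SMAD GC element GGCGC, AP-1 as TGANTCA, STAT as TTCNNNGAA, RUNX as TGTGGT, ETS as CGGAAG, and the NF-κB consensus. The Tnfrsf18 stretch had a SMAD element beginning 69 bases before the start and a STAT match at 99. The Tnfrsf1b stretch had the GC element at 247 and 76 bases and a STAT match at 181 that overlaps an ETS match at 177. In the Tnfrsf8 stretch an AP-1 match stood at 132 bases and the GC element at 5, and NF-κB matches at 168 and 167 overlapped each other. The Fas stretch had an AP-1 match at 211 bases and a STAT match at 93. The SMAD palindrome was in none of the 10 windows, and in 0.226% of all 21263 coding-gene windows. The SMAD element was in 2 of the 10 (18.9% of all windows), the GC element in 4 (46.7%), AP-1 in 3 (6.99%), STAT in 5 (7.69%), RUNX in 2 (14.97%), ETS in 3 (21.1%) and NF-κB in 3 (9.25%). The AP-1 matches lay at Tnfrsf8, Fas and the second start of Tnfrsf9, and the 3 genes with an NF-κB match were Tnfrsf8, Tnfrsf9 and Tnfrsf25. Such matches describe the letters of the windows and were not tested for binding.

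The WT lists agreed on most peaks of these genes. Of the 41 peaks of WT replicate 2, 35 met a peak of WT replicate 1 (85.4%; exact 95% interval 70.8% to 94.4%), and 85.8% did so over the whole list. In the other direction 32 of 44 did (72.7%; 57.2% to 85.0%), and 61.5% over the whole list. The 28 WT-only regions with 1 peak per list had centres a median of 35.5 bp apart, and 23 of the 28 were within 100 bp. Over the genome the median was 41 bp, and 78.0% of 15306 such regions were within 100 bp. Shared base pairs as a percentage of all base pairs covered by either WT list ran from 30.7% at Tnfrsf8 to 71.1% at Tnfrsf4. At Tnfrsf8, 97.7% of the base pairs of WT replicate 2 lay in peaks of WT replicate 1, but only 30.9% in the other direction.

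Peaks without a partner in the other WT list had a median width below that of the whole list. The 12 found in WT replicate 1 alone had a median width of 331 bp, and 5 stood at the smallest width of the list. The 6 found in WT replicate 2 alone had a median of 273 bp, and 3 stood at the smallest width. A peak of the other WT list lay within 1 kb of 5 of the 12 and 4 of the 6. Over all member peaks the median width was 584 bp in WT replicate 1 (240 to 2936 bp) and 462 bp in WT replicate 2 (242 to 1372 bp), against 440 and 438 bp for the whole lists. Widths above the list median were found for 28 of 44 and 25 of 41 peaks.

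**Figure D3:**
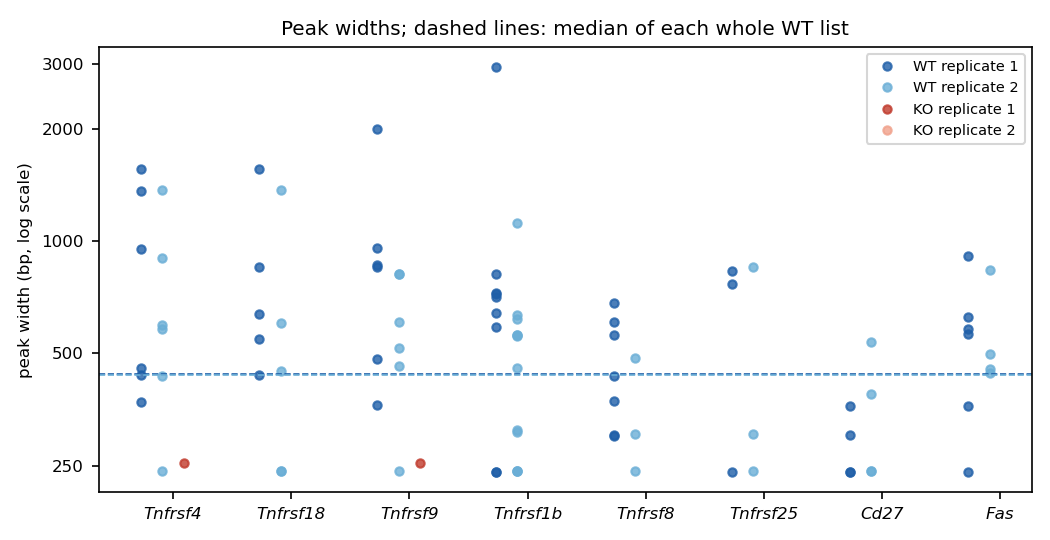
Width in bp (log axis) of every peak at the 8 receptor genes, by library, with dashed lines at the median of each whole WT list (440 and 438 bp). Tnfrsf1b and Tnfrsf9 hold the widest peaks, 2936 and 2006 bp in WT replicate 1, and the KO peaks sit at 254 bp.

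The number of regions has to be read with the length of the territory, since long genes have more room. Territories ran from 22573 bp at Tnfrsf18 to 68033 bp at Tnfrsf8. Per 10 kb, Tnfrsf18 and Tnfrsf4 had the highest densities, with 2.22 and 2.17 WT-only regions, followed by Tnfrsf1b with 1.28 and Cd27 with 1.22. Tnfrsf25 had 0.813, Fas 0.7002, Tnfrsf9 0.653 and Tnfrsf8 0.441. Counting each base once, the 8 genes held 0.968 WT-only regions per 10 kb, and all coding territories together 0.101. When coding genes were put in 10 groups by territory length, 0.413% of the 2180 genes in the group of Tnfrsf4 and Tnfrsf18 (21.6 to 24.2 kb) had 5 or more WT-only regions. In the group of Tnfrsf1b and Tnfrsf9 (44.6 to 56.0 kb), 0.459% had 7 or more and 9.14% had 3 or more. Tnfrsf25 stood closest to its group: 15.2% of genes of 24.2 to 27.4 kb had 2 or more, and 40.3% had at least 1.

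**Figure D4:**
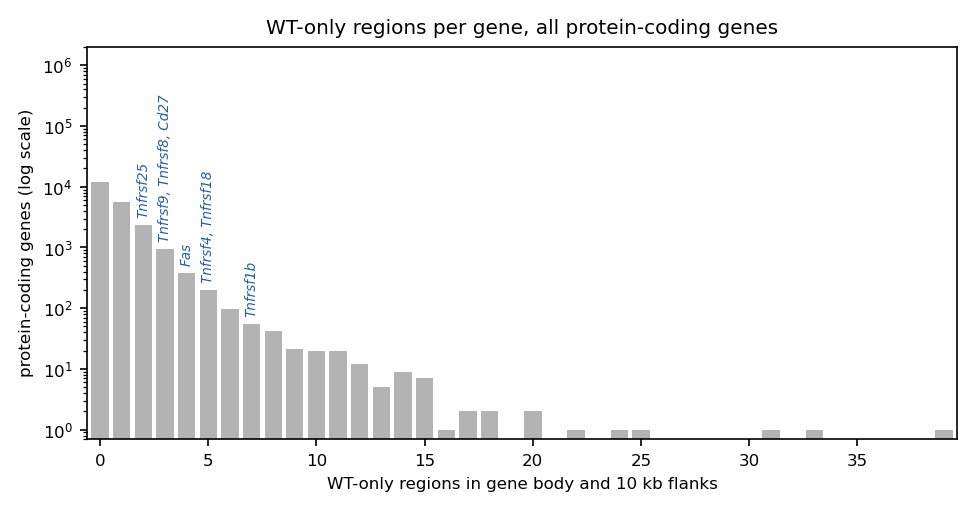
Number of protein-coding genes (log axis) by their count of WT-only regions in the gene body and 10 kb flanks, with the 8 receptor genes named above their bars. They stand between 2 regions (Tnfrsf25) and 7 regions (Tnfrsf1b), while 12124 genes have none.

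Other coding genes with the same peak numbers in all 4 libraries were most frequent for Tnfrsf25 and absent for Tnfrsf1b, without following the WT-only counts in between. Tnfrsf4 and Tnfrsf9, with 2 such genes each, are the members with a KO peak, which 2.42% of all coding genes had in either KO list. The number of other coding genes with the same 4 values was 420 for Tnfrsf25, 141 for Cd27, 67 for Tnfrsf18, 62 for Fas, 21 for Tnfrsf8, 2 for Tnfrsf4, 2 for Tnfrsf9 and 0 for Tnfrsf1b. The genes nearest to Tnfrsf1b by the summed difference of the 4 peak numbers, and then by territory length, were Fam78a (9 and 10 WT peaks) and Dipk1a (11 and 12), each with a summed difference of 2. For Tnfrsf18 they were Lst1 and Trex1, with 5 and 5 WT peaks and no KO peak each, but 3 and 4 WT-only regions.

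Other genes of the pathway were counted in the same way. Of 9 ligand genes, 7 had a WT-only region, with a median of 1 over the list. The widest by summed peak width was shared by Tnf and its neighbour Lta, the genes of the founding cytokines of the family (chromosome 17, 35204271 to 35205682), each with 4 WT-only regions and 1 peak in KO replicate 2. The territories of Tnf and Lta overlap, so a region or peak there can count for both genes. Tnfsf8, the CD30 ligand gene, followed with 3. The OX40 ligand gene Tnfsf4 held 2, and the 4-1BB and GITR ligand genes Tnfsf9 and Tnfsf18 held 1 each. Those without one, named after their values were seen, were Cd70, the CD27 ligand gene, with no peak at all, and Fasl, the Fas ligand gene, with 4 peaks in WT replicate 1 and none elsewhere. The receptor and ligand genes of the pairs CD27 with CD70 and Fas with Fas ligand therefore had unlike counts, but so did other pairs. Receptor and ligand genes had 5 and 2 for OX40, 5 and 1 for GITR, and 3 and 1 for 4-1BB. They had 7 and 4 for TNFR2 with Tnf, and 2 and 1 for DR3 with Tnfsf15. The CD30 pair had equal counts, with 3 each.

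All 16 adaptor and signal genes had a WT-only region, with a median of 2. By the summed peak width of the widest region they were led by Cflar, which encodes the caspase-8 inhibitor c-FLIP (8 WT-only regions), Traf1, an adaptor of TNFR2 and 4-1BB (4), and Tradd, the death-domain adaptor (2). KO peaks lay at Birc3, an inhibitor-of-apoptosis gene, with 1 in KO replicate 1. Tnfaip3, the A20 feedback inhibitor of NF-κB, had 3 and 1 in KO replicates 1 and 2. The only WT-only region at Birc3 was shared with its neighbour Birc2 (chromosome 9, 7836371 to 7837858) and counted for both genes. The remaining 20 TNF receptor genes had a WT-only region in 9 cases, a share near the 44.3% of all coding genes, with a median of 0. By the summed width of both lists' peaks in a gene's widest WT-only region, Tnfrsf12a, Tnfrsf14 (HVEM) and Tnfrsf10b came first, with 2 WT-only regions each. The highest counts, named after their values were seen, were 5 each at the neighbours Tnfrsf22 and Tnfrsf26. The territories of these neighbours overlap, and their widest region (chromosome 7, 143627541 to 143629075) counted for both genes. The list held 1 gene with KO peaks, Tnfrsf19, with 1 in each KO list. No peak of any list lay at Ltbr, Tnfrsf13c, Tnfrsf11b, Ngfr, Edar or Eda2r, also named after their values were seen. Receptors known mainly from B-lineage cells stood on both sides, since Tnfrsf13b held 2 WT-only regions, Tnfrsf17 held 1 and Tnfrsf13c had no peak.

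A list of 10 receptor genes of the immunoglobulin family mixed costimulatory members, such as Cd28 and Icos, with inhibitory ones, such as Ctla4, Pdcd1 and Lag3. All 10 had a WT-only region, with a median of 3. By the same summed width Cd28, the main costimulatory receptor gene (9 WT-only regions), Havcr2 (3) and Ctla4 (3) led this list. A KO peak lay at 4 of them, Ctla4, Btla, Cd226 and Havcr2. These lists were compared by counts alone, and the difference between any of them and the 8 receptor genes was not tested.

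**Figure D5:**
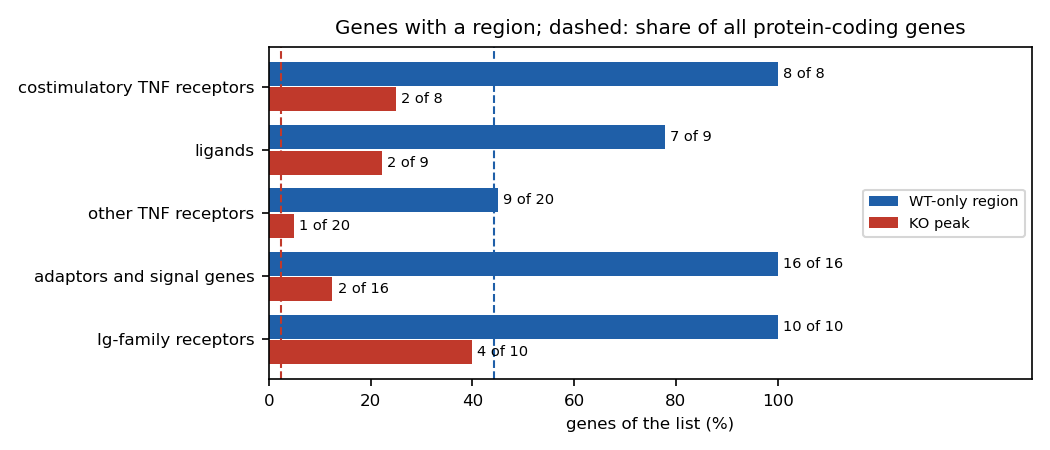
Share of genes (%) with a WT-only region (blue) or a KO peak (red) in the 8 costimulatory TNF receptor genes and 4 related lists, with dashed lines at the shares over all protein-coding genes (44.3% and 2.42%). The 8 receptor genes, the adaptors and the immunoglobulin-family receptors all reach the full share, and the other TNF receptor genes, at 9 of 20, lie beside the dashed line.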

How the data were processed

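Each of the 4 Smad4 ChIP libraries came with a deposited peak list of chromosome, start and end, other values such as height, score or p-value not being in the files used. The submitters' processing notes name HOMER 4.8.3, Bowtie, Trim Galore and the build mm10; their roles, thresholds and any use of input were not given in the sources used here. Lists were per sample, so replicates were not pooled. The number of reads is unknown, which limits every comparison between lists.

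Positions are printed 1-based. Gene bounds and promoter windows (250 bases before and 50 after a start) are from RefSeq, GRCm38.p6; coding genes on chromosomes other than Y that start below 3 Mb were left out. The table gives no exons, so intron and exon were not told apart. Peaks were merged at 1 bp. The 8 genes, the gene lists and the rule for named genes were chosen with earlier results of these data known. That rule took the 8 genes, the 3 genes per list whose widest WT-only region had the largest summed peak width, genes with a KO peak, and the genes most like the 2 genes with the most WT-only regions; Tnfrsf4 and Tnfrsf18 tied there and the first in alphabetical order was taken. Other names were added after their values were seen. The counting was checked on simulated peaks. Alternatives were other overlaps, territories and gene assignments, a 1 kb gap to KO peaks, the peaks wider than each list's median, and leaving out each library. Python 3.11.15, numpy 2.4.6, pandas 2.3.3, SciPy 1.17.1 and matplotlib 3.10.9 were used.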

Additional observations from a re-analysis of the deposited data

How the results depend on the processing

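With 12 alternatives, the number of the 8 genes with a WT-only region lay between 6 (gene body only, without Tnfrsf25 and Cd27) and 8. It was 7 with the nearest coding gene (without Tnfrsf25) and with the wider peaks of each list (without Cd27). The 30 distinct WT-only regions became 13 within gene bodies alone and 21 to 35 in the other alternatives that kept both WT lists. They became 39 without WT replicate 1 and 42 without WT replicate 2, since agreement between WT lists could then not be asked. A KO peak was found at 2 genes, at 0 within gene bodies or among wider peaks, at 1 by nearest coding gene, at 3 with 20 kb flanks, and at 0 to 2 when a KO library was left out (0 without KO replicate 1). The share of WT replicate 2 peaks that met WT replicate 1 fell from 85.4% to 58.5% when 50% of both peaks had to overlap and to 63.4% when centres had to lie within 100 bp. Of 96 counts for single genes, 70 stayed within 1.5 times, 18 were lower and 8 higher. With 1 WT list left out, every peak of the other that met no KO peak was counted as WT-only. In that way Tnfrsf8 rose from 3 to 7 without WT replicate 2, and Tnfrsf1b from 7 to 12 without WT replicate 1. Tnfrsf9 rose from 3 to 5 when either of the 2 WT libraries was left out. By nearest gene Tnfrsf4 fell from 5 to 1. With the replicate number as a replicate block, all 8 genes had more WT than KO peaks in both pairs. The exact paired test gave p = 0.5, the smallest possible with 2 pairs, so it could not call any gene. The replicate numbers are shared labels only, and no source says that they pair the samples.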
